A study of Homo sapiens with 6 samples.

Results

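The genes described here are 10 of the 18417 genes that the deposited table allowed to be named. They are the ligand genes BMP2, BMP4, BMP6 and BMP7, the antagonist genes GREM1 and NOG, and the inhibitor of DNA binding genes ID1, ID2, ID3 and ID4. They were chosen by name, with earlier results of these data known. Each had 1 probe set (the array's probes for a gene, read together), and none was dropped by a filter. Each of the lines MCF10A and MCF10A-SNAI1 was measured on 3 arrays. MCF10A comes from human mammary epithelium, and its cells are immortal but do not form tumors. MCF10A-SNAI1 was made from MCF10A cells in another laboratory and selected with puromycin. In its plasmid, a CMV enhancer and the promoter of chicken beta-actin drive Flag-tagged SNAI1. SNAI1 is a zinc finger repressor that drives the epithelial to mesenchymal transition. The control was the untransfected line, which came from ATCC through a colleague and is not stated to be the stock that was transfected. Plasmid, selection, separate culture and source stock therefore cannot be told apart from SNAI1 itself. The sources used here do not say whether the selected line is a clone or a pool. Mammary epithelial growth medium with cholera toxin was the medium given for the cells.

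Bone morphogenetic proteins (BMPs) are secreted ligands of the TGFß family. They join type I and type II receptor kinases, which phosphorylate SMAD1, SMAD5 and SMAD9, and these enter the nucleus with SMAD4. Noggin and gremlin, the products of NOG and GREM1, bind the ligands outside the cell and keep them from the receptors. ID1, ID2 and ID3 are classical direct targets of the pathway. ID proteins carry a helix-loop-helix domain without a DNA-binding region, so they pair with E proteins such as those encoded by TCF3, TCF4 and TCF12 and hold them off DNA. In the mammary gland, ID2 is known for its part in alveolar development, and ID4 for its expression in basal cells.

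SNAI1 itself followed the labels. It lay between 5.73 and 5.80 on the MCF10A arrays and between 10.50 and 10.53 on the MCF10A-SNAI1 arrays. Of 5 measured mammary epithelial markers, 4 were called lower, and of 5 mesenchymal markers 3 were called higher and 1 lower. None of the 5 measured leukocyte and endothelial markers differed (adjusted p from 0.132 to 0.909 by limma). Array medians were 6.04 to 6.09. All values are log2 values as deposited, and differences are MCF10A-SNAI1 minus MCF10A. A gene was called, and is said to rise or fall, at an adjusted p below 0.01 (limma, Benjamini-Hochberg over all probe sets) together with a change above 2-fold. The series gives the arrays as biological replicates, and each p measures only the spread between these arrays. In bulk RNA, fewer cells with a transcript and less of it per cell cannot be told apart.

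In MCF10A-SNAI1 cells ID2 rose, by 3.38-fold as measured from a low control level, and ID3 fell 2.88-fold, while none of the ligand and antagonist genes was called. Thus 1 of the 10 genes was called higher and 1 lower. Over all genes, 3.1% were called higher, 2.54% lower and 5.64% in either direction. A further 3 of the 10 passed the adjusted p but stayed under 2-fold. BMP4 and NOG were higher and ID1 was lower, which made 5 of 10 at an adjusted p below 0.01 against 23.2% of all genes. This number was 2 when replicate 2 or 3 of MCF10A or replicate 2 of MCF10A-SNAI1 was left out, and 3 without replicate 1 or 3 of MCF10A-SNAI1. By the methods' t-test it was 1, ID2, with BMP4 at an adjusted p of 0.0231, ID1 at 0.034 and NOG at 0.036. The arrays of the lines did not overlap for 7 of the 10, compared with 48.3% of all genes. The remaining 3, BMP7, GREM1 and ID4, overlapped. The median log2 difference of the 10 genes was 0.03 and that of all genes -0.01, and the median size of the difference was 0.37 against 0.15.

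**Figure D1:**
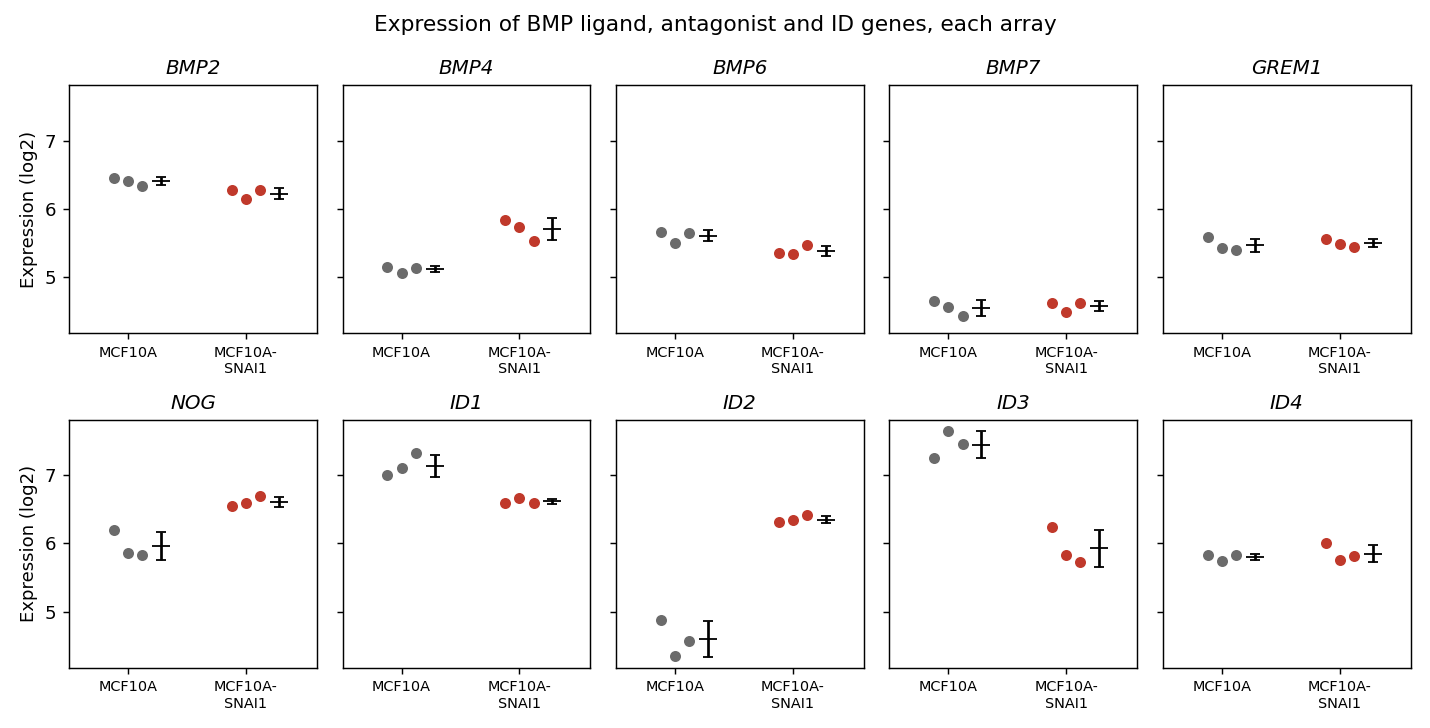
Deposited log2 value (vertical axis) of the 10 genes. Points are single arrays, grey for MCF10A and red for MCF10A-SNAI1, and black marks give the mean and SD of 3 arrays. ID2 lies at 4.6 in MCF10A and 6.35 in MCF10A-SNAI1, ID3 at 7.45 and 5.93, and BMP7, GREM1 and ID4 overlap between the lines.

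The ID genes went in different directions. ID2 read 4.87, 4.35 and 4.57 on the MCF10A arrays and 6.31, 6.35 and 6.41 on the MCF10A-SNAI1 arrays. Every MCF10A-SNAI1 array lay above every MCF10A array, and the MCF10A arrays were the more scattered, with an SD of 0.26 against 0.051 (n = 3 arrays each). The log2 fold change was 1.76 (standard error 0.13, 95% confidence interval 1.45 to 2.06, adjusted p = 9.89e-05 by limma). Its MCF10A level was at the 29.5th percentile of the probe sets, and it is not shown to be above background. The leukocyte and endothelial markers, which belong to other cell types, read 3.23 to 5.17 in MCF10A, although a level cannot be set exactly against that of another probe set. The fold is therefore that of the deposited values, and no other background correction was tried. RefSeq lists a pseudogene of ID2, ID2B, and whether its transcripts reach the ID2 probe set was not tested.

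ID3 showed the opposite pattern. It read 7.25, 7.65 and 7.46 in MCF10A and 6.24, 5.83 and 5.72 in MCF10A-SNAI1 cells, again without overlap. The log2 fold change was -1.52 (standard error 0.16, 95% confidence interval -1.90 to -1.15, adjusted p = 4.87e-04 by limma). ID3 ranked 230th by size among the 467 genes called lower. Only the methods' t-test left it uncalled, at an adjusted p of 0.013. ID2 and ID3 were called without each array in turn, at log2 fold changes of 1.63 to 1.89 and -1.68 to -1.42. For ID3, 2.62% of all genes had a larger measured difference in either direction.

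ID1 was lower in MCF10A-SNAI1 cells but under 2-fold. Its arrays read 7.0, 7.10 and 7.32 in MCF10A and 6.60, 6.66 and 6.59 in MCF10A-SNAI1 cells. All 3 arrays of the overexpressing line lay below those of the control. The log2 fold change was -0.52 (95% confidence interval -0.74 to -0.31, adjusted p = 0.00558 by limma), an interval that did not reach that of ID3. ID1 missed the adjusted p without any array other than MCF10A replicate 1, at 0.0106 to 0.0238.

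ID4 showed no detectable difference. Its arrays were at 5.83, 5.74 and 5.83 in MCF10A and at 6.0, 5.75 and 5.81 in MCF10A-SNAI1 cells. The difference of 0.05 had a 95% confidence interval of -0.14 to 0.25 (adjusted p = 0.733 by limma), so a difference as large as that of ID2 or ID3 lay outside it. Without MCF10A-SNAI1 replicate 1 the difference was -0.018.

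**Figure D2:**
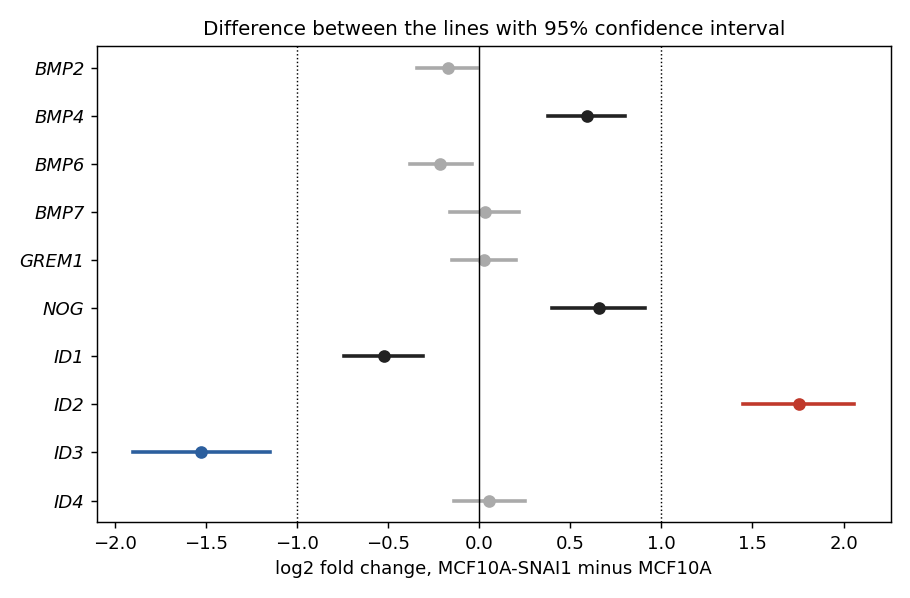
Log2 fold change of each gene (points, MCF10A-SNAI1 minus MCF10A) with its 95% confidence interval (lines) from limma, 3 arrays per line, in red for the gene called higher, blue for the gene called lower, black for genes at an adjusted p below 0.01 under 2-fold and grey for the rest. Dotted lines mark 2-fold. ID2 at 1.76 and ID3 at -1.52 lie beyond them on opposite sides, and the interval of ID1 ends at -0.74.

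The DNA just before the transcription start is shown for the 3 ID genes that passed the adjusted p, because SNAI1 is a repressor that binds the E-box CAGGTG and these genes differed in direction. The 250 bases upstream of the RefSeq start are given 5′ to 3′ on the strand of the gene (GRCh38.p14), at chr2:8681806-8682055 for ID2 (plus strand), chr1:23559502-23559751 for ID3 (minus strand) and chr20:31605039-31605288 for ID1 (plus strand). Capitals mark CCAAT boxes, searched as CCAAT on both strands, and also CAGGTG and GGCGCC, neither of which was found in these windows.
ID2: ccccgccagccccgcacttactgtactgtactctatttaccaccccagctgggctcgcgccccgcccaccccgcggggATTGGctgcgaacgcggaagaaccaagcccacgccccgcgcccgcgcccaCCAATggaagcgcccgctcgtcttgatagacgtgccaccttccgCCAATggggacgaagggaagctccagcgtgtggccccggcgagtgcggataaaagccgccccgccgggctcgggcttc
ID3: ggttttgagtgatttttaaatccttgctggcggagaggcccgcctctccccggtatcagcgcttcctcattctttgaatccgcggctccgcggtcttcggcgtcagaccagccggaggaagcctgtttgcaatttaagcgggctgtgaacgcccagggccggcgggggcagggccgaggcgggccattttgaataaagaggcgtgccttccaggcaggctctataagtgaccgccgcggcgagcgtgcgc
ID1: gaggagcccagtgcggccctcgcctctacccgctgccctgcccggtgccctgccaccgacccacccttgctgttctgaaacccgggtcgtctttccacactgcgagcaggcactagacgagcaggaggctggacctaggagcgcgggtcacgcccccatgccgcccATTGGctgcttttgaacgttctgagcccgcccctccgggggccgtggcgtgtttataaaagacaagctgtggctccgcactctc

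ID2 held 3 CCAAT boxes, ID1 held 1 and ID3 held none in this window. BMP6, ID4 and the first start of GREM1, genes that did not pass the adjusted p, also held 1 each. The windows of BMP4, which passed it, and the second start of GREM1 held none. Of 35116 promoters of the same length in the RefSeq table, 32.0% held at least 1 and 2.93% held 3 or more. The limit of 3 is the number found in ID2 itself, so the 2.93% is no test of that gene. Whether CCAAT boxes bear on the direction of any of these genes was not tested. No CAGGTG, searched on both strands, was found in the 10 start windows of the 7 genes with a sequence in that table (BMP4, BMP6, GREM1 and the ID genes), against 17.5% of all promoters. The looser E-box CANNTG, which contains CAGGTG, was found in 3 of these windows, in ID2, ID4 and the third start of BMP4, against 61.8% of promoters. GGCGCC, a GC-rich SMAD element that reads the same on both strands, was found in the first start of BMP4 and of GREM1 and in 16.4% of promoters. The GC content of the 10 windows ran from 56.0 to 78.8%, against a median of 58% for all promoters. The shares were not adjusted for it, and several windows belong to the same gene. These are matches of letters in a short window, and binding was not measured. Sequence outside the 250 bases was not searched, nor was any SMAD element other than GGCGCC. The windows therefore do not show whether a gene has such sites elsewhere.

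Among the ligand genes, BMP4 was higher and the others lay near their control level. BMP4 read 5.14, 5.06 and 5.13 in MCF10A and 5.83, 5.73 and 5.52 in MCF10A-SNAI1 cells. The arrays did not overlap, and the log2 fold change of 0.59 corresponded to 1.5-fold (standard error 0.090, adjusted p = 0.00293 by limma). BMP4 missed the adjusted p when replicate 1, 2 or 3 of MCF10A was left out, at 0.012, 0.0153 and 0.013, and when replicate 2 of MCF10A-SNAI1 was, at 0.014. Its interval of 0.38 to 0.80 stayed below 2-fold.

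BMP2, a ligand best known for inducing bone, read 6.45, 6.41 and 6.33 in MCF10A and 6.27, 6.14 and 6.27 in MCF10A-SNAI1 cells. BMP6, a close relative of BMP7, read 5.65, 5.50 and 5.64 in MCF10A and 5.35, 5.33 and 5.46 in MCF10A-SNAI1 cells. For both, all arrays of the overexpressing line were below those of the control by a small margin. The log2 differences of -0.17 and -0.21 did not pass (adjusted p = 0.131 and 0.0761 by limma). BMP7 read 4.65, 4.56 and 4.42 in MCF10A and 4.61, 4.48 and 4.62 in MCF10A-SNAI1 cells. Its arrays overlapped, with a difference of 0.03 (95% confidence interval -0.16 to 0.22, adjusted p = 0.861 by limma), which was -0.032 without MCF10A replicate 3.

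The antagonist NOG was higher in MCF10A-SNAI1 cells, again under 2-fold. It read 6.19, 5.86 and 5.83 in MCF10A and 6.55, 6.59 and 6.70 in MCF10A-SNAI1 cells, without overlap. The log2 fold change was 0.65, or 1.57-fold (standard error 0.11, 95% confidence interval 0.40 to 0.91, adjusted p = 0.00444 by limma). NOG missed the adjusted p without any array other than MCF10A replicate 1, at 0.0126 to 0.0208. GREM1 read 5.58, 5.42 and 5.39 in MCF10A and 5.56, 5.48 and 5.44 in MCF10A-SNAI1 cells. These ranges overlapped, and the difference of 0.03 had an interval of -0.15 to 0.20 (adjusted p = 0.858 by limma). It changed sign without MCF10A replicate 3, at -0.007, and without MCF10A-SNAI1 replicate 1, at -0.004.

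The exact two-sided permutation test over the arrays gave p = 0.1 for each of the 7 genes without overlap, the smallest p that 3 arrays against 3 allow. No line mean of the 10 genes lay in the lowest 20% of all values, below 3.94. The means of BMP7 were the lowest in rank, at the 28.7th and 29.1st percentile of the probe sets of each line, and for ID2 and BMP4 in MCF10A, as for BMP7, a level of this size does not by itself show that a gene is transcribed. With probe sets of a mean below the median of 6.06 left out, only BMP2, NOG, ID1 and ID3 would have been tested.

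**Figure D3:**
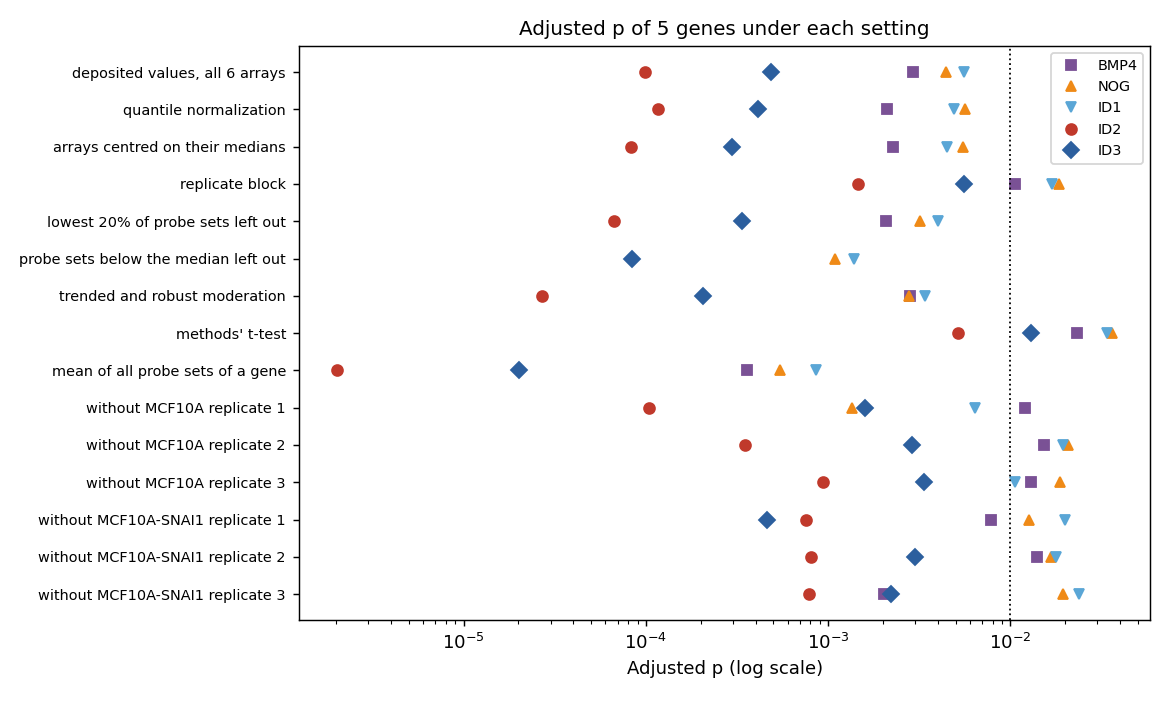
Adjusted p (horizontal axis, log scale) of the 5 genes that passed an adjusted p of 0.01 (dotted line), with a row for the deposited values and for each alternative. ID2 stays below 0.01 wherever it was tested, ID3 lies above 0.01 only in the methods' t-test, at 0.013, and BMP4, NOG and ID1 lie above it in 6 or 7 alternatives each.

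The rest of the pathway was read from lists of 68 further genes, of which 63 were measured. Of these, 5 were called higher, 3 lower and 55 were not called, with a median log2 difference of -0.01. Of all genes, 3.1% were called higher, 2.54% lower and 5.64% in either direction. These shares also apply to the count of each list below. The lists are small and were chosen with earlier results of these data known, and no set test was run. None of the 10 other BMP and GDF ligands was called, and their differences ran from -0.14 to 0.23. BMP10, a ligand of the developing heart, had the highest at 0.23 (adjusted p = 0.117 by limma). Its mean of 3.87 in MCF10A lay in the lowest 20% of all values, and that in MCF10A-SNAI1 was 4.1, so it is not shown to be above background. BMP5, at means of 3.76 in MCF10A and 3.69 in MCF10A-SNAI1, lay in the lowest 20% in both lines. Without detection calls, the lack of a difference does not show whether any of these ligand genes is transcribed.

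None of the 10 measured receptors and coreceptors was called either, but 4 passed the adjusted p under 2-fold. Of all genes, 23.2% passed it at any fold. The type I receptor gene BMPR1A was not among the measured genes, so nothing is known of it here. The type II receptor genes BMPR2 and ACVR2A were higher at 0.74 and 0.80 (adjusted p = 1.79e-04 and 9.17e-04 by limma), and the type I receptor gene ACVR1 at 0.47 (adjusted p = 0.00423). The type I receptor gene BMPR1B was lower at -0.99 (adjusted p = 6.45e-04), just short of the fold threshold. Over the whole list the median was 0.03.

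Among 16 secreted modulators, 2 rose and 1 fell. FSTL1, a secreted glycoprotein related to follistatin in sequence, rose 5.36-fold from 8.93 ± 0.080 to 11.35 ± 0.038 (SD, n = 3 arrays; adjusted p = 1.13e-06 by limma). FST, which encodes the activin and BMP antagonist follistatin, fell 7.41-fold from 9.03 ± 0.094 to 6.14 ± 0.11 (SD, n = 3 arrays; adjusted p = 1.31e-06). BMP1 encodes a protease that cleaves the BMP antagonist chordin and procollagens, and is no BMP ligand. It rose at a log2 fold change of 1.23, which was 0.70 and under 2-fold when its 2 probe sets were averaged. TWSG1, TLL1 and CRIM1, at 0.44, 0.48 and 0.66, were higher under 2-fold. The list had a median of -0.06.

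In the intracellular part of the pathway, the receptor-activated SMAD genes were not called. SMAD1 lay at -0.31, SMAD5 at 0.13 and SMAD9 at 0.33 (adjusted p = 0.0232, 0.236 and 0.0219 by limma). The shared partner SMAD4 was higher at 0.45 (adjusted p = 0.00169). Of the 11 genes in this list, 1 was called, the ubiquitin ligase gene SMURF2, which fell at -1.46 (adjusted p = 9.55e-06). Its relative SMURF1 was lower under 2-fold at -0.68 (adjusted p = 0.00103). The pseudoreceptor BAMBI and the corepressor SKIL were higher under 2-fold, at 0.43 and 0.67. The inhibitory SMAD6 and SMAD7, which are also pathway targets, lay at 0.04 and -0.16 (adjusted p = 0.839 and 0.20). The list had a median of 0.06.

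Of 10 other genes described as BMP targets, 2 rose, none fell and 8 were not called. GATA3, a factor of luminal mammary cells, rose from 7.27 ± 0.062 to 8.97 ± 0.10, and RUNX2, a factor of bone formation, from 6.52 ± 0.15 to 7.97 ± 0.069 (SD, n = 3 arrays; adjusted p = 9.61e-06 and 4.35e-05 by limma). TBX3 was higher at 0.96 (adjusted p = 3.97e-04). The homeobox genes MSX1, MSX2, DLX3 and DLX5 lay between -0.11 and 0.09, with adjusted p from 0.442 to 0.972. The median of the list was 0.04.

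Of 6 measured bHLH genes related to ID function, 1 rose and 1 fell. TCF4, an E protein gene, rose at 1.25 (adjusted p = 2.61e-05 by limma), from 6.42 ± 0.079 to 7.66 ± 0.059 (SD, n = 3 arrays). The other E protein genes TCF3 and TCF12 lay at -0.23 and 0.28 (adjusted p = 0.0298 and 0.0177). HES1, a bHLH repressor that ID proteins can also bind, fell at -2.25 (adjusted p = 1.85e-06). The median of the 6 was -0.21.

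**Figure D4:**
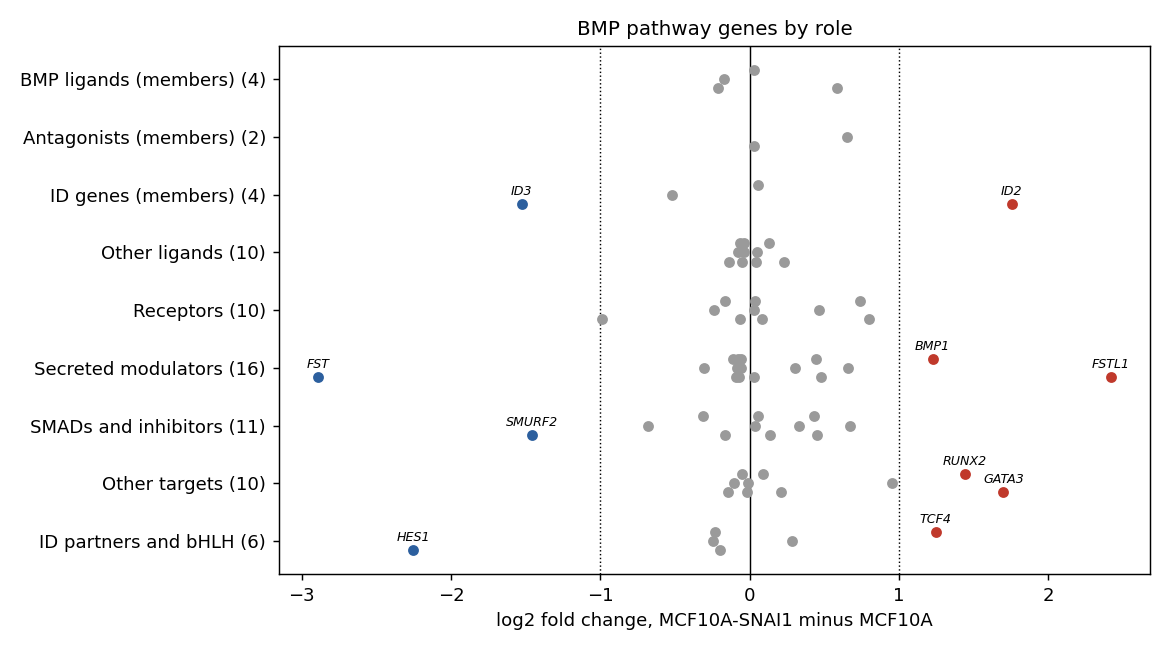
Log2 fold change (horizontal axis, MCF10A-SNAI1 minus MCF10A) of the 10 genes and 63 further pathway genes, with a point per gene in a row for each role and the number measured in brackets. Red and blue points were called higher and lower, grey points were not called, dotted lines mark 2-fold, and the vertical offset within a row only separates points. FST at -2.89 and FSTL1 at 2.42 lie farthest out, and no measured ligand or receptor lies beyond 2-fold. BMPR1A was not measured.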

How the data were processed

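Total RNA was hybridized to 6 Affymetrix HuGene arrays, 3 per line. The deposited table holds a log2 value for each of 33297 probe sets and no detection calls. Its normalization is GC RMA in GeneSpring by the methods, while GCOS, Expression Console 1.1 and MAS5 stand in the submitters' processing notes. The sources used here do not settle which program wrote it. Groups and replicate numbers came from the sample titles.

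The values were kept as deposited and compared with limma 3.58.1 in R 4.3.3 (linear model, empirical Bayes), unpaired as in the methods, and p-values were adjusted over all probe sets by Benjamini-Hochberg. Genes were named from the 19460 probe sets with exactly 1 symbol, the brightest per gene, which gave 18417 genes. No set test was run. Named were the 10 genes, SNAI1, and up to 4 called genes per direction of each pathway list. Other pathway genes in the text were chosen after their values were seen. The 10 genes and all lists were chosen with earlier results of these data known. The test was also tried on simulated data. The number of arrays limits the precision.

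The alternatives changed the scaling (quantile normalization, median centring), the arrays (each left out in turn), the design (replicate number as a block), the probe sets (2 filters on dim ones, averages per gene) and the test (the methods' t-test, robust trended moderation, no fold threshold).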

Additional observations from a re-analysis of the deposited data

How the results depend on the processing

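ID2 was called in all 13 alternatives that tested it. ID3 was called in 13 of 14 and missed in the methods' t-test. The number of the 10 genes called was 2, and it was 1 in that t-test, 1 with probe sets below the median left out, where ID2 was not tested, and 5 without a fold threshold. The number at an adjusted p below 0.01 was 5, and it was 1 in the t-test, 3 with probe sets below the median left out and 2 to 4 without single arrays, where fewer arrays entered the fit. With the replicate number as a block it was 2, ID2 and ID3. The numbers share no stated batch, and the deviations of same-numbered arrays correlated at 0.115, 0.122 and -0.006, so they were not taken as pairs. The sign changed only in BMP7, GREM1 and ID4, which no setting called. Leaving out single arrays gave BMP7 -0.032 to 0.083, GREM1 -0.007 to 0.085 and ID4 -0.018 to 0.107. The number of further pathway genes called was 8 and stayed between 7 and 10. BMP1 fell under 2-fold with averaged probe sets. An alternative for linear values was not run, because the table is on the log2 scale.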
